A study of Caenorhabditis elegans with 6 samples.

Results

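The 10 genes described here encode the core proteins of the *C. elegans* basement membrane. They are the laminin chains *lam-3*, *epi-1*, *lam-1* and *lam-2*, the nidogen *nid-1*, the type IV collagens *emb-9* and *let-2*, the perlecan *unc-52*, the collagen XV/XVIII homologue *cle-1* and the agrin *agr-1*. They were chosen by gene name among the 20362 genes of the count table, and all 10 were among the 13736 genes with enough counts to be tested. RNA-Seq of whole nematodes compared 3 libraries of wild-type N2 Bristol (WT) with 3 of *grh-1* OEx line 1 (called OEx from here on), a strain in which the promoter of the heat shock gene *hsp-16.2* drives a *grh-1*::*gfp* fusion. The construct was introduced by bombardment of an *unc-119* deficient strain, the resulting animals were backcrossed to N2, and a single line was sequenced. In both groups eggs were incubated for 64 h at 20 °C and the young adults kept for a further 48 h at 20 °C on *E. coli* OP50. No heat shock was given to either group, and the libraries of a group are independent biological samples.

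Basement membranes are thin sheets of extracellular matrix that underlie epithelia and surround muscle, gonad and nerves. Laminin, a trimer of an alpha, a beta and a gamma chain, forms a first network at the cell surface, type IV collagen forms a cross-linked network above it, and nidogen and perlecan bridge them. In nematodes most type IV collagen is made by body wall muscle and carried to other tissues, whereas laminin is made by several tissues. GRH-1 is the nematode member of the Grainyhead family of transcription factors, which are best known for their roles in the epidermis and other epithelia.

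The libraries held 14409044 to 25535026 counts each, of which 11451 to 27518 fell on the 10 genes. As a check of the construct, *grh-1* averaged 5.60 ± 0.59 CPM (counts scaled by library size and normalized by TMM) in WT and 7.96 ± 1.61 CPM in OEx (SD over n = 3). Its OEx values, which include reads of the construct, all lay above the WT values, but with a log2 fold change of 0.51 the adjusted p by edgeR was 0.709. Of *hsp-16.2* the construct carries the promoter and not the gene. That gene stood at only 0.47, 0.22 and 0.65 CPM in WT and at 0.63, 1.07 and 1.82 CPM in OEx. Its groups overlapped, and the log2 fold change of 1.35 had an adjusted p of 0.666 by edgeR. WT replicate 3 was the library farthest from the others along the leading principal component (51.9% of the variance). Its summed sperm markers reached 179 CPM against 5.40 to 26.5 CPM in the other 5 libraries. Markers of body wall muscle, germline, intestine, epidermis and neurons were detected in every library, as whole nematodes contain these tissues. In such bulk RNA, fewer cells of a type and less RNA per cell cannot be told apart.

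The basement membrane genes differed widely in level. By CPM per kb of exon, over all 6 libraries, the type IV collagens were the most abundant, with *let-2* at 60.3 (range 43.7 to 76.0) and *emb-9* at 43.6 (range 29.0 to 53.6). *lam-1* followed at 18.9, *nid-1* at 16.5, *lam-2* at 11.7, *epi-1* at 9.496, *cle-1* at 6.54, *unc-52* at 6.35, *lam-3* at 3.78 and *agr-1* at 1.23. This order held in all 6 libraries for most neighbouring pairs. The exceptions were *epi-1* above *cle-1*, seen in 5 of 6 libraries, and *cle-1* above *unc-52*, seen in 3 of 6. The steps from *emb-9* to *lam-1* and from *lam-3* to *agr-1* also had ranges over the libraries that did not overlap, whereas the ranges of the other neighbours overlapped. The exon length used is that of all annotated exons together, and *unc-52*, with 17 annotated transcripts and 14253 bases of merged exon, ranked 8 of 10 by this length and 5 of 10 by the shorter length of the deposited table (6373 bases). *lam-1* (5901 bases of merged exon, 3073 deposited) ranked 3 of 10 by both, but stood at 36.2 CPM per kb by the deposited length.

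No basement membrane gene passed the test between OEx and WT. By the quasi-likelihood test of edgeR, with p-values adjusted over all tested genes by Benjamini-Hochberg, 0 of 10 were higher, where 0.146% of all tested genes were, and 0 of 10 were lower, where 0.298% of all tested genes were. DESeq2 and limma-voom also called 0 of 10. At an unadjusted p under 0.05, *lam-3* and *agr-1* were the 2 of 10 that were higher, against 2.18% of all tested genes, and 0 of 10 were lower, against 4.44%. By the same unadjusted threshold DESeq2 gave 4 of 10 higher, against 1.98% of the genes it tested, and limma-voom 2, against 2.18%. Of the 10 log2 fold changes 9 were above 0, with a median of 0.30, where the median of all tested genes was -0.010 and 47.6% of them were above 0. All 10 genes had groups that overlapped, so that 0 of 10 had all OEx libraries above all WT libraries (3.39% of tested genes did) and 0 of 10 had them all below (6.14% did).

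These counts moved with single libraries. The number higher at an unadjusted p under 0.05 was 2 without WT replicate 1 (2.14% of all genes in the same fit), 4 without WT replicate 2 (3.06%) and 5 without WT replicate 3 (4.76%). It was 1 without OEx replicate 1 (1.37%), 1 without OEx replicate 2 (1.05%) and 4 without OEx replicate 3 (4.9%). Where it reached 4, the genes were *lam-1*, *lam-2*, *lam-3* and *agr-1*, and *epi-1* joined them without WT replicate 3. The remaining gene was *lam-3* without OEx replicate 1 and *agr-1* without OEx replicate 2. The median of the 10 log2 fold changes was 0.15 without WT replicate 1, 0.18 without OEx replicate 2, and 0.46 without OEx replicate 3. It stayed above 0 in each of the 6 fits that left out a library.

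**Figure D1:**
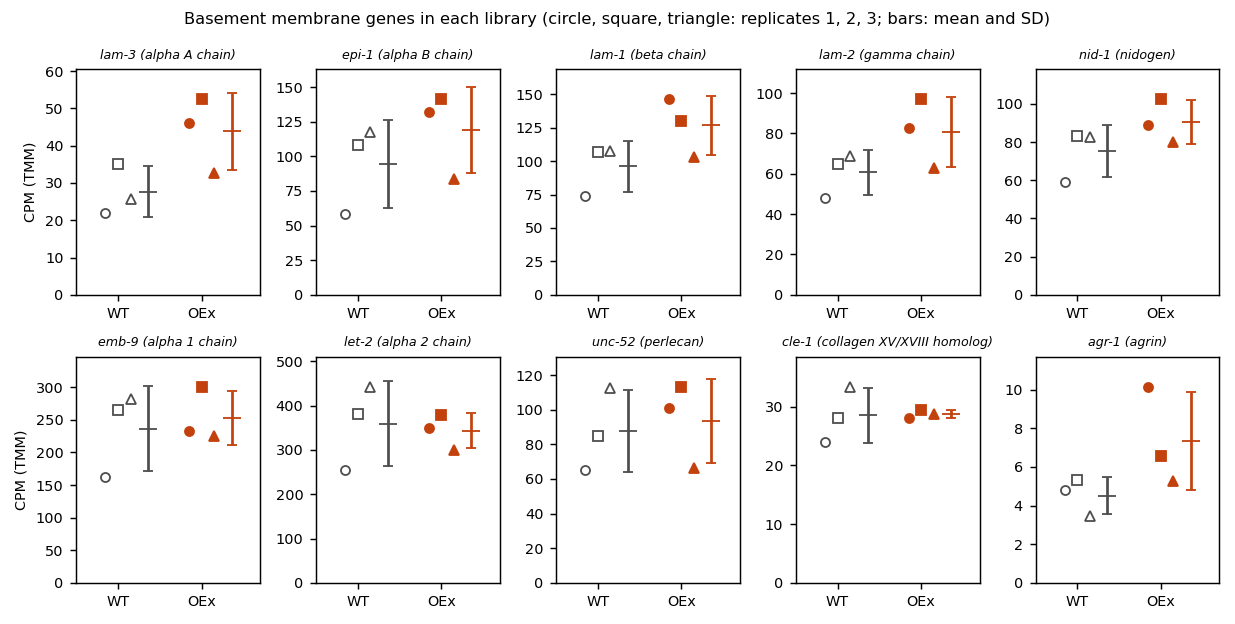
Level of each basement membrane gene in CPM (normalized by TMM) in the 3 WT libraries (open grey symbols) and the 3 OEx libraries (filled orange symbols), with bars for mean and SD. In every panel the groups overlap, WT replicate 1 (open circle) is the lowest library for 9 of 10 genes, and OEx replicate 2 (filled square) is the highest for 6. Over all tested genes WT replicate 1 is the lowest library in 18.4% and OEx replicate 2 the highest in 16.6%.

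The laminin alpha chains are alternatives, since a nematode laminin trimer contains either LAM-3 or EPI-1. *lam-3* encodes the alpha A chain, and its gene (WBGene00002248) spans bases 10608466 to 10621428 of chromosome I, plus strand, in WBcel235, the build of all positions given here. It stood at 22.02, 35.2 and 25.8 CPM in WT and at 46.2, 52.6 and 32.6 CPM in OEx. Replicates 1 and 2 of OEx were above all WT libraries, whereas replicate 3 lay below WT replicate 2. The log2 fold change of 0.66 (standard error 0.21, 95% interval 0.19 to 1.14) had an unadjusted p of 0.0111 and an adjusted p of 0.467 by edgeR. Over the other settings its adjusted p ran from 0.121 by DESeq2 to 1.0 without OEx replicate 1 or 2.

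*epi-1* (WBGene00001328, chromosome IV, 10666827 to 10679441, plus strand) encodes the alpha B chain, which is needed for the shape of several epithelial organs. Its levels were 58.3, 107.8 and 117.7 CPM in WT and 132.1, 141.6 and 83.4 CPM in OEx. WT replicate 1 and OEx replicate 3 were the low libraries, and the groups overlapped. This gave a log2 fold change of 0.33 (standard error 0.27, 95% interval -0.28 to 0.94, edgeR adjusted p = 1.0). It was 0.12 without WT replicate 1, 0.19 without OEx replicate 2, 0.51 without WT replicate 3 and 0.56 without OEx replicate 3.

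*lam-1* (WBGene00002247, chromosome IV, 5173280 to 5183708, plus strand) encodes the beta chain that is shared by both laminin trimers. It stood at 73.8, 106.5 and 107.9 CPM in WT and at 146.6, 130.2 and 103.1 CPM in OEx. OEx replicate 3 lay within the WT range and the other OEx libraries above it. For *lam-1* the log2 fold change was 0.40 (standard error 0.19, 95% interval -0.024 to 0.82, edgeR adjusted p = 0.785).

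*lam-2* (WBGene00016913, chromosome X, 7143918 to 7151235, minus strand) encodes the gamma chain, also shared by both trimers. Its levels were 48.0, 65.1 and 68.8 CPM in WT and 82.7, 97.2 and 62.7 CPM in OEx. The order of the libraries was close to that of *lam-1*, with replicate 3 of OEx again inside the WT range. The log2 fold change was 0.41 (standard error 0.19, 95% interval -0.013 to 0.84, edgeR adjusted p = 0.765), so that the 4 laminin chains had log2 fold changes from 0.33 to 0.66. That of *lam-2* was 0.26 without OEx replicate 2.

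*nid-1* (WBGene00003738, chromosome V, 12910113 to 12917221, plus strand) encodes nidogen, which binds both laminin and type IV collagen. It stood at 59.4, 83.4 and 82.8 CPM in WT and at 89.2, 102.7 and 79.9 CPM in OEx. The pattern across libraries was that of the shared laminin chains, with a smaller difference between groups. At *nid-1* the log2 fold change was 0.27 (standard error 0.17, 95% interval -0.10 to 0.64, edgeR adjusted p = 0.911), and it was 0.17 without either WT replicate 1 or OEx replicate 2 and 0.40 without WT replicate 2.

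The type IV collagen chains, which assemble into 1 trimer, differed little between the groups. *emb-9* (WBGene00001263, chromosome III, 9336877 to 9344447, minus strand) encodes the alpha 1 chain and stood at 162.8, 265.5 and 281.9 CPM in WT and at 233.6, 300.9 and 224.7 CPM in OEx. *let-2* (WBGene00002280, chromosome X, 16380597 to 16389369, minus strand) encodes the alpha 2 chain and stood at 254.8, 380.9 and 443.1 CPM in WT and at 349.7, 379.5 and 300.8 CPM in OEx. For both genes the WT libraries alone covered most of the range. The log2 fold change of *emb-9* was 0.096 (standard error 0.22, 95% interval -0.40 to 0.59) and that of *let-2* -0.067 (standard error 0.21, 95% interval -0.54 to 0.41), and both signs turned when single libraries were left out.

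*unc-52* (WBGene00006787, chromosome II, 14647327 to 14666943, minus strand) encodes perlecan, a large heparan sulfate proteoglycan that anchors body wall muscle to the basement membrane. Its levels were 65.3, 85.0 and 112.4 CPM in WT and 100.8, 113.2 and 66.4 CPM in OEx, so that WT replicate 1 and OEx replicate 3 were nearly equal at the low end. Its log2 fold change was 0.093 (standard error 0.24, 95% interval -0.43 to 0.62). *cle-1* (WBGene00000527, chromosome I, 8705687 to 8724279, minus strand) encodes a collagen with an endostatin domain that acts in axon guidance and at synapses. It stood at 24.0, 28.1 and 33.4 CPM in WT and at 28.0, 29.5 and 28.8 CPM in OEx, with all OEx libraries inside the WT range. The log2 fold change of *cle-1* was 0.0099 (standard error 0.14, 95% interval -0.31 to 0.32), and both genes changed sign without WT replicate 1 or OEx replicate 2. The kit did not mark the strand, and *cle-1* shares 158 exon bases (3.61% of its exon length) with *cdk-8* on the opposite strand, whose reads there cannot be told apart from its own.

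*agr-1* (WBGene00018304, chromosome II, 6760683 to 6775176, minus strand) encodes agrin, a heparan sulfate proteoglycan known in vertebrates for organising the neuromuscular junction. It was the least abundant of the 10, with 71 to 211 counts per library. Its levels were 4.79, 5.30 and 3.43 CPM in WT and 10.2, 6.58 and 5.27 CPM in OEx. OEx replicate 1 was far above the other libraries, and replicate 3 lay just below WT replicate 2. The log2 fold change was 0.71 (standard error 0.28, 95% interval 0.082 to 1.33), with an unadjusted p of 0.0304 and an adjusted p of 0.698 by edgeR. Without OEx replicate 1 the log2 fold change was 0.40.

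A predicted GRH-1 binding motif is listed for *agr-1* and is shown here because it is the only match listed for any of the 10 genes. It reads, on the plus strand and with the whole match in capitals,
agr-1 match: TCCGGTTT
and lies at bases 6774293 to 6774300 of chromosome II in WBcel235, 876 bases into the gene from its annotated start, within exon 4 of transcript F41G3.12.1. The position and strand were worked out from the study's listing and were not checked against the genome sequence. The match came from 1 of the 2 search programs used by the study (FIMO), and the other (TFBSTools) gave none at this gene. The search was limited to genes that the study had selected for a difference between these same samples, and only matches given by both programs were carried further. Among the genes searched were *lam-1*, *lam-2*, *lam-3* and *agr-1*, whereas *epi-1*, *nid-1*, *emb-9*, *let-2*, *unc-52* and *cle-1* were outside the selection, so that they could have no match listed. How many other promoters hold the same letters was not analysed here, and a match of 8 bases is a description, not a binding site.

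The median level of the 10 genes was lowest in the libraries in which long genes in general were low, WT replicate 1 and OEx replicate 3. *agr-1* and *lam-3* departed from this in WT replicate 3, where long genes were high but *agr-1* had its lowest level and *lam-3* its second lowest. All 10 genes have at least 4378 bases of merged exon, *cle-1* being the shortest. Relative to the mean of the 6 libraries, the 644 tested genes of 4 to 8 kb had median log2 levels of -0.34, -0.047 and 0.26 in WT replicates 1 to 3 and of 0.14, 0.20 and -0.20 in OEx replicates 1 to 3. The median over the basement membrane genes was -0.49, 0.0031 and 0.11 in WT and 0.23, 0.33 and -0.092 in OEx. In the 95 tested genes of 8 kb and over the range was wider, from -0.53 in WT replicate 1 to 0.35 in WT replicate 3, and in the 4002 genes under 1 kb it ran the other way. Both the low and the high libraries came from both groups, and the 739 tested genes of 4 kb or more had a median log2 fold change between groups of 0.071, with 71.7% above 0 and 2.44% higher at an unadjusted p under 0.05.

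**Figure D2:**
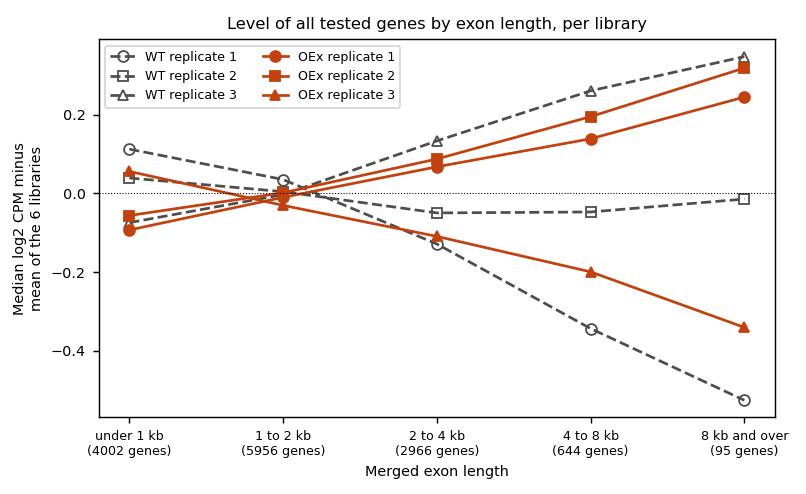
Median log2 CPM of all tested genes relative to the mean of the 6 libraries (y axis) in 5 classes of merged exon length (x axis), with 1 line per library (WT dashed grey, OEx solid orange). The lines fan out with length, WT replicate 1 and OEx replicate 3 downwards to -0.53 and -0.34 and WT replicate 3 and OEx replicates 1 and 2 upwards to 0.35, 0.25 and 0.32.

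A fit in which the trend of level on exon length was taken out of each library, chosen after these values were seen, lowered the standard error of every basement membrane gene except *agr-1*. *lam-1* was then 97.4, 109.2 and 89.2 CPM in WT and 131.5, 111.5 and 122.6 CPM in OEx, a log2 fold change of 0.31 (standard error 0.12, unadjusted p = 0.0326, adjusted p = 0.636 by edgeR). *lam-2* was 63.7, 66.7 and 56.7 CPM in WT and 74.1, 83.0 and 74.8 CPM in OEx, a log2 fold change of 0.31 (standard error 0.11, unadjusted p = 0.0191, adjusted p = 0.523 by edgeR). *lam-3* was 32.1, 35.7 and 20.3 CPM in WT and 39.9, 42.9 and 41.4 CPM in OEx, a log2 fold change of 0.51 (standard error 0.18, unadjusted p = 0.0208, adjusted p = 0.542 by edgeR). In this fit these 3 laminin chains had all OEx libraries above all WT libraries, which makes 3 of 10 basement membrane genes where 4.93% of 13663 tested genes with a length did so, and none of the 10 passed the adjusted test. With the replicate number as a block in this fit, *lam-1* was no longer under the unadjusted threshold (unadjusted p = 0.0682 by edgeR) and *agr-1* was (unadjusted p = 0.0390). *epi-1* overlapped between groups by a narrow margin, with 108.7 CPM in WT replicate 2 and 108.3 CPM in OEx replicate 3, at a log2 fold change of 0.22 (standard error 0.12). *emb-9*, *let-2*, *unc-52* and *cle-1* had log2 fold changes of 0.031, -0.13, -0.058 and -0.046, and *agr-1* had 0.57 (standard error 0.30, unadjusted p = 0.0852, adjusted p = 0.743 by edgeR).

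**Figure D3:**
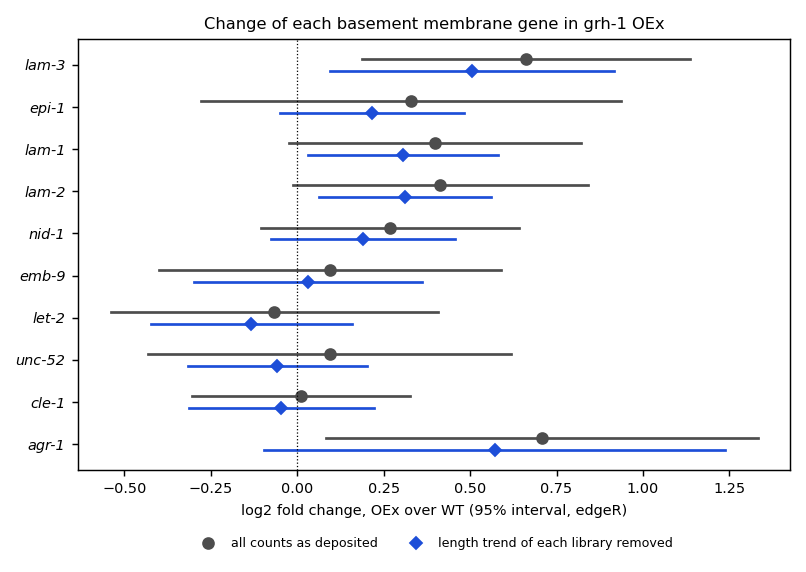
Log2 fold change of OEx over WT for each basement membrane gene with its 95% interval from edgeR (3 libraries per group), from the counts as deposited (grey circles) and with the length trend of each library removed (blue diamonds). Without the trend the intervals of *lam-3*, *lam-1* and *lam-2* lie above 0, that of *agr-1* crosses 0, and those of the collagens, *unc-52* and *cle-1* are centred between -0.13 and 0.031.

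A ratio within a library needs no scaling between libraries, and the type IV collagens gave a common measure for the other 8 genes. This measure was chosen after the values were seen and is given as a description. As a percentage of the reads of *emb-9* and *let-2* together, *lam-3* stood at 5.27, 5.45 and 3.56% in WT and 7.92, 7.73 and 6.21% in OEx. *lam-1* had 17.7, 16.5 and 14.9% in WT and 25.1, 19.1 and 19.6% in OEx, and *lam-2* had 11.5, 10.1 and 9.49% in WT and 14.2, 14.3 and 11.9% in OEx. *nid-1* had 14.2, 12.9 and 11.4% in WT and 15.3, 15.1 and 15.2% in OEx. For these 4 genes the groups were separate, which makes 4 of 8 where 1.7% of all tested genes had all OEx libraries above all WT libraries by the same measure. That share is not a like comparison. Most tested genes are shorter than *emb-9* and *let-2*, and for them the length trend of a library does not cancel in the ratio. The 4 genes also share the same denominator, so that they are not separate observations. *epi-1* did not separate, with 13.97, 16.7 and 16.23% in WT and 22.6, 20.8 and 15.9% in OEx, nor did *unc-52*, *cle-1* or *agr-1*. Summed over the 4 laminin chains, the measure averaged 47.1 ± 2.53% over the 3 WT libraries and 61.8 ± 8.14% over the 3 OEx libraries (SD), a ratio of 1.31. The nearest libraries were OEx replicate 3 at 53.6% and WT replicate 2 at 48.7%.

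**Figure D4:**
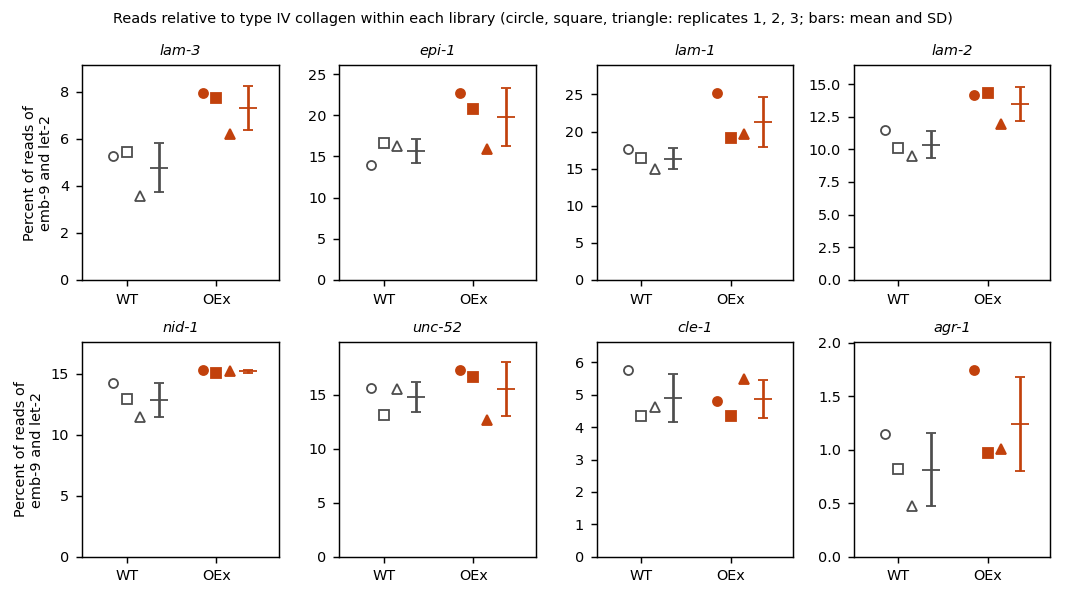
Reads of each basement membrane gene as a percentage of the reads of *emb-9* and *let-2* in the same library (y axis), for 3 WT libraries (open grey) and 3 OEx libraries (filled orange), with bars for mean and SD. *lam-3*, *lam-1*, *lam-2* and *nid-1* have every OEx point above every WT point, and the panels of *epi-1*, *unc-52*, *cle-1* and *agr-1* overlap.

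Ratios between chains of the same trimer asked whether the balance of partners differed by genotype. Per kb of the deposited length, *lam-3* stood to *epi-1* as 0.446, 0.386 and 0.259 in WT and as 0.413, 0.439 and 0.462 in OEx. The OEx ratios were close together, with replicates 1 and 2 inside the WT range and replicate 3 just above it, and the difference of 0.30 on the log2 scale had p = 0.3 in a two-sided exact permutation test (0.45 adjusted over 3 ratios). WT replicate 3, the library with the high sperm markers, set most of it, as the difference was 0.078 without that library. By the same length *emb-9* stood to *let-2* as 0.691, 0.754 and 0.688 in WT and as 0.723, 0.858 and 0.808 in OEx, a log2 difference of 0.16 (exact permutation p = 0.2, 0.45 adjusted). By the deposited length *lam-1* stood to *lam-2* as 2.83, 3.01 and 2.88 in WT and as 3.26, 2.46 and 3.02 in OEx. By merged exon length, which is far longer for *lam-1*, it stood as 1.57, 1.68 and 1.61 in WT and as 1.82, 1.37 and 1.68 in OEx. The log2 difference was -0.0048 by either length (exact permutation p = 1). With 3 libraries per group the smallest p this test can give is 0.1, so that none of the 3 ratios could have passed 0.05.

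Some sums of markers of other tissues and stages moved with parts of this pattern, and others did not. The 8 larval molting markers summed to 286, 296 and 290 CPM in WT and to 420, 506 and 264 CPM in OEx. Of the 8, 6 had log2 fold changes above 0 and 2 below, *mlt-10* (-0.055) and *nas-37* (-0.079). The largest were those of the matrix genes *noah-1* (log2 fold change 0.67, adjusted p = 0.565 by edgeR) and *noah-2* (0.59, adjusted p = 0.538 by edgeR). OEx replicate 3 had the lowest sum of the 6 libraries and replicates 1 and 2 the highest. The 3 epidermal markers summed to 114, 118 and 153 CPM in WT and to 157, 183 and 118 CPM in OEx. Most of each sum was *lin-26*, with 91.8 CPM in WT replicate 1 and 150 CPM in OEx replicate 2. Body wall muscle markers, from the tissue that makes most type IV collagen, summed to 1327, 1637 and 2212 CPM in WT and to 1790, 1821 and 1301 CPM in OEx. Like *let-2* and long genes in general, these sums were low in WT replicate 1 and OEx replicate 3 and high in WT replicate 3. The order differed in WT replicate 2, where *let-2* was above OEx replicates 1 and 2 and the muscle sum was below them. Somatic gonad markers summed to 203, 193 and 186 CPM in WT and to 184, 170 and 190 CPM in OEx, highest in WT replicate 1. Intestine markers summed to 744, 728 and 928 CPM in WT and to 692, 838 and 667 CPM in OEx. Neuron markers summed to 254, 221 and 277 CPM in WT and to 224, 266 and 206 CPM in OEx. Both were lowest in OEx replicate 3, but WT replicate 1 lay above WT replicate 2 and OEx replicate 1. Germline markers summed to 5052, 5169 and 9026 CPM in WT and to 5934, 7079 and 5765 CPM in OEx. That sum was lowest in WT replicate 1 and highest in WT replicate 3. Early embryo markers had their lowest sum in WT replicate 2 and their highest in OEx replicate 3. The part of larval, epidermal, muscle or other tissue RNA in the levels of the basement membrane genes was not tested.

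The other genes of the pathway were read from lists of receptors, further matrix proteins, collagen processing, proteases and cytoplasmic adhesion proteins. By edgeR 0 genes of any list passed the adjusted test, where 0.146% of all tested genes passed as higher and 0.298% as lower. DESeq2 and limma-voom also gave 0 list genes. At an unadjusted p under 0.05 by edgeR *mig-17* alone was lower, against 4.44% of all tested genes, and 0 were higher, against 2.18%. The signs and medians of each list stand beside 47.6% above 0 and a median of -0.010 over all tested genes. Over the tested genes of 4 kb or more these were 71.7% and 0.071. Of the receptors and surface proteoglycans 10 of 12 could be tested, 8 had log2 fold changes above 0 and the median was 0.15. The largest of the named ones were *ddr-2*, a discoidin domain receptor for collagen (0.46, unadjusted p = 0.0901), *dgn-1*, the laminin receptor dystroglycan (0.38, unadjusted p = 0.164), and *ddr-1* (0.29, unadjusted p = 0.239), with the integrin alpha chain *pat-2* at 0.19. None of these passed the edgeR test.

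Of the 11 further matrix proteins, 8 had log2 fold changes above 0, with a median of 0.099. *pxn-2*, a peroxidasin of the type that cross-links type IV collagen, had 0.48 (unadjusted p = 0.0605 by edgeR), the netrin *unc-6* had 0.42 and the large matrix protein *dig-1* had 0.33, while the F-spondin *spon-1* had -0.18. Of the 9 collagen processing genes, 7 were above 0, with a median of 0.069. *phy-2*, a prolyl 4-hydroxylase subunit, stood at 25.5, 26.1 and 22.1 CPM in WT and at 28.9, 29.5 and 29.4 CPM in OEx, separate groups but a log2 fold change of 0.25 (unadjusted p = 0.0640, adjusted p = 0.791 by edgeR). *phy-3*, a further prolyl 4-hydroxylase gene, had -0.69 at a level below 2.1 CPM, with groups that separated the other way. That makes 1 of 9 separate as higher and 1 of 9 as lower, where 3.39% and 6.14% of all tested genes were. The lysyl hydroxylase *let-268* and the subunit *dpy-18* had 0.20 and 0.15.

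The matrix proteases and their inhibitors had a median of -0.030, with 6 of 12 above 0. *mig-17*, a secreted ADAMTS protease that acts on basement membranes during gonad migration, stood at 5.20, 4.65 and 4.46 CPM in WT and at 3.56, 3.16 and 2.63 CPM in OEx. The groups were separate, but the log2 fold change of -0.61 (standard error 0.22, unadjusted p = 0.0191) had an adjusted p of 0.590 by edgeR. *adt-3* and *adt-1*, of the same family, had 0.60 and 0.55 with groups that overlapped, and the matrix metalloprotease *zmp-1* had -0.40. Like *mig-17*, *zmp-1* and *zmp-4* (-0.12, named after its values were seen) had all OEx libraries below all WT libraries, which makes 3 of 12 in this list where 6.14% of all tested genes did so. The margins were narrow in the latter 2. *zmp-1* stood at only 0.66 to 1.16 CPM, with its nearest libraries at 1.08 (WT replicate 1) and 1.00 CPM (OEx replicate 3). Those of *zmp-4* were at 35.9 (WT replicate 1) and 35.3 CPM (OEx replicate 1). All 6 cytoplasmic integrin adhesion genes had log2 fold changes above 0, from 0.016 to 0.20, with a median of 0.088. Among them the kindlin *unc-112* had 0.19, the vinculin *deb-1* 0.20, the PINCH protein *unc-97* 0.11 and the parvin *pat-6* 0.061.

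**Figure D5:**
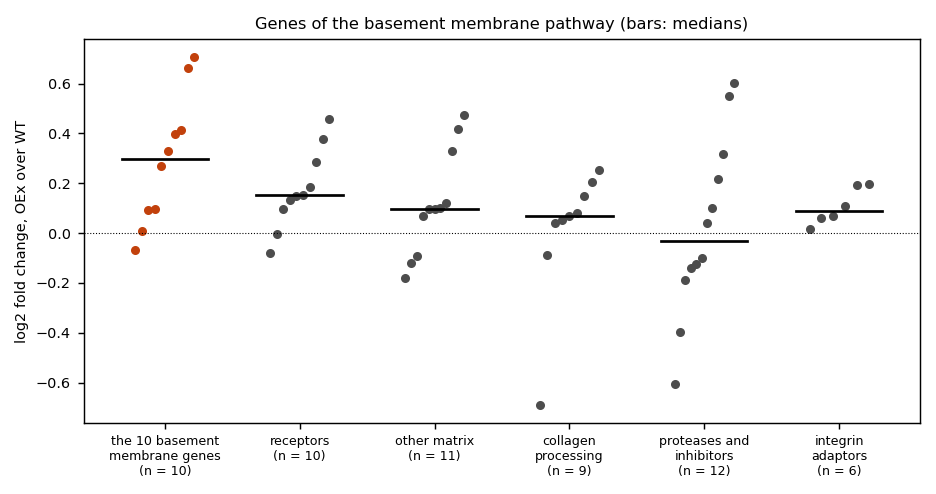
Log2 fold change of OEx over WT (y axis) for each tested gene (points) of the 10 basement membrane genes (orange) and of 5 lists of pathway genes (grey), with bars for medians. The medians are 0.30 for the basement membrane genes, 0.15, 0.099, 0.069 and 0.088 for receptors, other matrix, collagen processing and integrin adaptors, and -0.030 for proteases and inhibitors, and no gene shown passed the adjusted test.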

How the data were processed

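RNA of whole nematodes was poly(A)-enriched by the authors with a kit that does not mark the strand. Reads were trimmed and mapped to WBcel235 (Ensembl) with STAR by the authors, who deposited whole-number counts per gene from featureCounts (versions are not given in the sources used here). The deposited table also gives gene positions and lengths, which are other values than expression. Columns of the authors' own comparison (p-values, adjusted p-values and log2 ratios) were not used, nor were 12 per-sample columns of normalized counts and FPKM.

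Counts were tested in R 4.3.3 with edgeR 4.0.16 (glmQLFit and glmQLFTest, TMM, filterByExpr at min.count 10 and min.total.count 15). All 13736 genes passing were fitted together, with Benjamini-Hochberg adjustment over them and a threshold of 0.05, two-sided. CPM are TMM-normalized. Samples were grouped by genotype from the labels. The biological coefficient of variation was 0.21. No library was a copy of another (chi-square per degree of freedom at least 16.4 within groups). The test was also run on simulated data with known changes.

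The genes, lists and markers were chosen with earlier results of these data known. Named were all 10 genes, up to 4 genes of each list with the smallest p, *grh-1* and *hsp-16.2*, and others only where a small count or a marker list needed a name. 10 list genes were matched by their current symbol, and *dgn-2*, *dgn-3* and *zmp-6* did not pass the filter. Exon lengths are merged Ensembl exons of WBcel235, found for 99.5% of tested genes, and positions are the deposited ones. The length trend was a lowess curve (span 0.3) of log2 CPM on log length in each library, passed to edgeR as an offset.

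Alternatives were DESeq2 1.42.0, limma-voom (limma 3.58.1), factors by RLE or the upper quartile, no low-count filter, a filter of 10 counts in each library, a block for replicate number, each library left out, 0.5 counts added to ratios, and, chosen after seeing the data, the length trend removed (with and without the block) and WT replicate 1 and *grh-1* OEx replicate 3 left out together.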

Additional observations from a re-analysis of the deposited data

How the results depend on the processing

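In all settings tried, 0 of 10 basement membrane genes passed the adjusted test, and *lam-1*, *lam-2*, *lam-3*, *epi-1*, *nid-1* and *agr-1* kept a log2 fold change above 0. The number higher at an unadjusted p under 0.05 was 2 in the main fit, against 2.18% of all genes in the same fit. It was 4 with DESeq2 (1.98%), RLE factors (2.57%), no filter (2.16%) or at least 10 counts in every library (2.64%). With the length trend removed it was 3 (*lam-1*, *lam-2* and *lam-3*, 2.83%), and with the block as well 3 (*lam-2*, *lam-3* and *agr-1*, 3.01%). It was 3 with WT replicate 1 and OEx replicate 3 left out (3.75%), and 1 to 5 when single libraries were left out (1.05% to 4.9%). Over all tested genes, 20 passed as higher and 41 as lower by edgeR, against 60 and 89 by DESeq2, 10 and 42 with the replicate number as a block, 32 and 212 without WT replicate 1, 1 and 12 without OEx replicate 1, and 6 and 17 with WT replicate 1 and OEx replicate 3 left out. Small values changed sign. Leaving out single libraries gave 0.12 to 0.56 for *epi-1*, 0.17 to 0.40 for *nid-1*, 0.26 to 0.59 for *lam-2*, -0.068 to 0.24 for *emb-9*, -0.22 to 0.11 for *let-2*, -0.065 to 0.31 for *unc-52* and -0.047 to 0.14 for *cle-1*. *emb-9* was at -0.068 and -0.045, *unc-52* at -0.032 and -0.065, and *cle-1* at -0.047 and -0.0057 in the fits lacking WT replicate 1 and OEx replicate 2. *let-2* had 0.034, 0.11 and 0.046 in those lacking WT replicate 2, WT replicate 3 and OEx replicate 3. With the length trend removed *unc-52* had -0.058 and *cle-1* -0.046, and with the block as well -0.055 and -0.050. In the fit lacking both WT replicate 1 and OEx replicate 3, *emb-9* had -0.0066 and *cle-1* -0.067. Leaving out single libraries gave differences in log2 ratio of -0.090 to 0.11 for *lam-1* to *lam-2* (0.021 lacking WT replicate 2, 0.11 lacking OEx replicate 2), of 0.078 to 0.47 for *lam-3* to *epi-1* and of 0.10 to 0.23 for *emb-9* to *let-2*. The cause of these shifts was not tested.

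The labels do not say whether the replicate numbers pair the samples, and the main fit did not pair them. The deviations of libraries with the same number correlated with r = 0.23, -0.0090 and -0.12 over genes. Those of libraries with different numbers ran from -0.37 to 0.33, so that these values cannot decide it. With the number as a block 0 of 10 genes passed, *lam-3* had a log2 fold change of 0.66 (adjusted p = 0.429 by edgeR), and the ratios of *lam-3* to *epi-1*, *lam-1* to *lam-2* and *emb-9* to *let-2* had exact permutation p of 0.5, 1 and 0.25. With 3 blocks 0.25 is the smallest p that this test can give, so that none of the ratios could have passed and *emb-9* to *let-2* stood at the limit. Precision is limited by 3 libraries per group, and *agr-1* rests on 71 to 211 counts per library.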
